A study of Mus musculus with 30 samples.

Results

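Se_HD mice, which are labelled as given selenium together with the high dose of methylmercury (MeHg), were compared with HD mice, which received the high dose without added selenium. The mice were chosen by their treatment label alone, 5 Se_HD mice (libraries 6, 12, 18, 24 and 30) and 5 HD mice (libraries 3, 9, 15, 21 and 27), 10 of the 30 mice of the series. All were male BALB/c mice, and RNA of the hippocampus was sequenced as 1 library per mouse. HD mice arrived at 2 to 3 weeks of age, were housed individually, and received for 11 weeks an AIN-93G diet spiked with 5 mg MeHg per kg as the cysteine-bound compound. For Se_HD mice the dose of mercury is given only as high. The title of the series names selenium-methionine as the added form, and the amount of selenium, the feeding time and the age of the selenium groups are not given in the sources used here. The Ctr mice (no MeHg), the Se_Ctr mice (selenium, no MeHg) and the low-dose pair LD and Se_LD, 5 mice each, were used as background. The LD diet held 0.28 mg MeHg per kg, and Ctr and LD mice had the arrival age and the 11 weeks of feeding of HD mice.

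Selenium is built into a small family of proteins as the amino acid selenocysteine, which is encoded by UGA, a codon that otherwise ends translation. Selenoproteins include the glutathione peroxidases and thioredoxin reductases, which keep thiols and lipids reduced, and the selenol group of selenocysteine binds mercury strongly. In brain, injury by MeHg is known to be met by microglia, the resident macrophages, which phagocytose and release complement and chemokines, and by astrocytes, which raise intermediate filament proteins such as GFAP when reactive. Metallothioneins are small cysteine-rich proteins that bind metals, mercury included.

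HD libraries held 7133831 to 10783739 reads on genes (median 10159514) and Se_HD libraries 7313129 to 11270577 (median 9406503), a difference of means of -617767 reads (exact two-sided permutation test, p = 0.524). HD library 15 was the shallowest. Markers of hippocampal subfields were present in every library: Prox1, a transcription factor of dentate granule cells, lay between 525 and 988 normalized counts in HD mice and between 682 and 875 in Se_HD mice. Transcripts of 14 choroid plexus genes varied widely within both groups, with a summed level of 12085 to 51019 in HD and 17532 to 59251 in Se_HD mice, and none of the 14 passed the test. HD library 21 stood apart from the other HD mice in many genes and HD library 27 lay nearest to the Se_HD mice, and values without them are given beside the results they changed most. Values are normalized counts, that is reads divided by a size factor per library. A difference is given as the log2 fold change of Se_HD minus HD on the log2(value + 1) scale, with its standard error (SE) from limma over all 30 libraries, 24 residual degrees of freedom and p-values adjusted over 21383 genes by the Benjamini-Hochberg method.

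Of the 21383 genes tested, 70 (0.327%) differed between Se_HD and HD mice at an adjusted p under 0.05. Of these, 68 (0.318%) were lower in Se_HD mice and 2 (0.00935%), Selenow and Gad1, were higher. The 68 genes that fell had a median log2 fold change of -1.06, between -0.41 and -4.18. At an unadjusted p under 0.05 there were 1792 genes (8.38%, beside the 5% that would pass with no difference), 1129 lower and 663 higher. With quantile normalization the unadjusted count was 1798, with 932 lower and 866 higher. In 320 genes (1.5%) all mice of one group lay beyond all mice of the other, 193 below (0.903%) and 127 above (0.594%), and 48 of the 70 genes were among them. A mean of at least 10 normalized counts over the HD and Se_HD libraries was reached by 14314 genes, Cst7 among them through HD mice alone. Of the 14314, 62 (0.433%) passed the adjusted threshold, 1371 (9.58%) the unadjusted one, and in 258 (1.8%) the groups did not overlap. The median log2 fold change over all genes was -0.01.

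The number of calls changed with the libraries and the tool used. When only the 10 libraries of the groups compared were fitted with limma, no gene passed the adjusted threshold (lowest adjusted p = 0.171) and 1383 had an unadjusted p under 0.05, while edgeR's quasi-likelihood test and DESeq2 on the recovered reads of all libraries called 167 and 228 genes. Leaving out HD mouse 21, 9 or 27 gave 15, 18 and 168 calls, and leaving out a Se_HD mouse gave 26 to 58. In all 10 fits that leave out 1 mouse, 13 of the 70 genes were called: Gfap, Cst7, Mpeg1, Tyrobp, Cd68, Cx3cr1, Csf3r, C1qa, C1qb, C1qc, Glycam1, Nckap1l and Il1b.

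**Figure D1:**
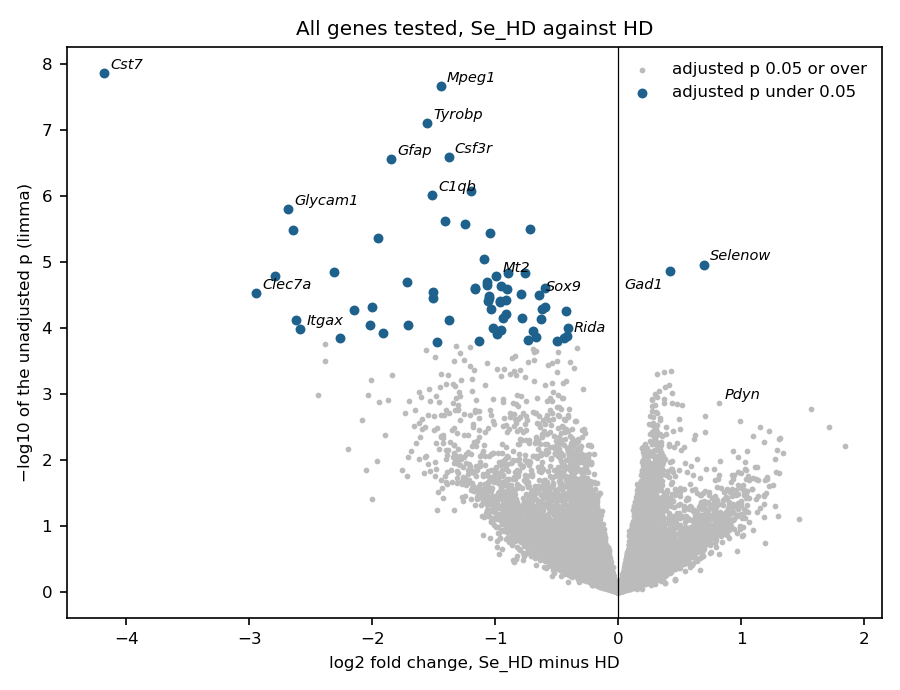
Each point is a gene, with its log2 fold change of Se_HD minus HD on the x axis and -log10 of its unadjusted limma p on the y axis. The 70 genes with an adjusted p under 0.05 are blue, 68 on the left (lower in Se_HD mice) and Selenow and Gad1 on the right.

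Transcripts of microglia were lower in Se_HD than in HD mice. Of 28 genes of activated microglia, 16 fell at an adjusted p under 0.05 and 25 at an unadjusted p, none rose, and the list had a median log2 fold change of -1.27. Of 14 genes of homeostatic microglia, 5 fell at an adjusted and 10 at an unadjusted p, none rose, and the median was -0.54. In bulk tissue, fewer microglia and less RNA of these genes per cell cannot be told apart. The summed level of the 14 homeostatic genes was 3728 to 7483 in HD mice, 3244 to 3784 in Se_HD mice, 3014 to 3381 in Ctr mice and 2911 to 3831 in Se_Ctr mice. Without HD mouse 21 the median of the activated list was -0.98, with 21 members under the unadjusted and 5 under the adjusted threshold, and that of the homeostatic list was -0.39, with 9 and 1. Without HD mouse 9 the activated list had a median of -1.11, with 24 and 5 such members, and the homeostatic list -0.45, with 9 and 1. Without HD mouse 27 the medians were -1.51 and -0.66, and 21 and 7 members passed the adjusted threshold.

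Tyrobp, the adaptor that carries the signal of TREM2 and related receptors into microglia, is on chromosome 7 (NCBIM37, 31198807 to 31202596). It was at 173, 402, 190, 387 and 118 normalized counts in HD mice 3, 9, 15, 21 and 27, and at 69.6, 67.8, 68.1, 78.4 and 106 in Se_HD mice 6, 12, 18, 24 and 30. All Se_HD mice lay below all HD mice, and 4 of them lay within the Ctr range of 54.1 to 89.5. The log2 fold change was -1.55 (SE 0.226, limma adjusted p = 0.000557), a 3.25-fold lower mean.

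Mpeg1, which encodes the macrophage pore-forming protein perforin-2, was at 862, 1480, 706, 1585 and 457 normalized counts in HD mice and at 311, 332, 344, 339 and 361 in Se_HD mice. The Se_HD mice were close to each other, HD mouse 21 was the highest and mouse 27 the lowest of the HD mice, and the groups did not overlap. Its log2 fold change was -1.44 (SE 0.198, limma adjusted p = 0.000234).

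Cst7, which encodes cystatin F, an inhibitor of lysosomal cathepsins raised in disease-associated microglia, had no read in any Se_HD mouse. In HD mice it was at 20.1, 36.7, 13.4, 62.0 and 1.74 normalized counts. Against a floor of 3 reads per library, the HD mean of 26.8 ± 23.4 (SD, n = 5) was at least 9.16-fold higher (limma adjusted p = 0.000234). HD mouse 27 was near the level of Ctr mice, whose highest value was 5.10.

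Other members of the activated list ranged widely in HD mice, and for some of them the groups overlapped. Clec7a, the beta-glucan receptor dectin-1, was at 39.4, 76.7, 17.5, 92.2 and 4.36 normalized counts in HD mice and at 0.944 to 4.57 in Se_HD mice, where mouse 27 alone reached into the Se_HD range (log2 fold change -2.94, SE 0.609, limma adjusted p = 0.0199). Itgax, the integrin CD11c, was at 7.85 to 90.8 in HD and 2.28 to 6.36 in Se_HD mice (-2.59, limma adjusted p = 0.0385), and the chemokine gene Ccl3 at 2.62 to 50.8 and 0 to 2.28 (limma adjusted p = 0.0160). The Se_HD values of Ccl3 were also under the level of 3 reads, and its fitted log2 fold change of -2.79 ran from -3.93 to -1.21 over the settings tried. Over the same settings Clec7a ran from -3.77 to -1.74 and Itgax from -3.36 to -1.57. Cd68, a glycoprotein of phagocyte lysosomes, fell by 1.25 on the log2 scale (limma adjusted p = 0.00565) and Trem2, a lipid receptor, by 1.03 (limma adjusted p = 0.0245). Cathepsins S and D, proteases of the lysosome, fell by 0.90 (Ctss) and 0.78 (Ctsd), and Cd14 and Cd84 were also among the 16. The adjusted p rose to 0.143 for Trem2, 0.238 for Itgax, 0.124 for Clec7a, 0.0939 for Ccl3, 0.0505 for Cd84, 0.189 for Ctsd and 0.259 for Cd14 without HD mouse 21. In that fit the log2 fold change was -0.93 for Trem2, -2.24 for Itgax, -2.55 for Clec7a and -2.61 for Ccl3. It was -0.59 for Ctsd, -1.76 for Cd84 (-1.96 with all mice) and -1.30 for Cd14 (-1.48 with all mice). Ctss was called without HD mouse 21 (0.0441) but not without HD mouse 9 (0.0940) or Se_HD mouse 18 or 24. Of the 10 fits that leave out 1 mouse, Cd14 was called in 1, Itgax in 2, Trem2 and Ctsd in 4, Clec7a in 6, Ccl3 and Ctss in 7, and Cd84 in 9.

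Of the homeostatic genes, Cx3cr1, the fractalkine receptor, was at 841, 1174, 877, 1062 and 596 normalized counts in HD mice and at 488, 554, 524, 534 and 604 in Se_HD mice. HD mouse 27 fell within the Se_HD range and all 5 Se_HD mice lay within the Ctr range of 476 to 616. Its log2 fold change was -0.72 (SE 0.128, limma adjusted p = 0.00585). Csf1r, the receptor for the growth factors that microglia depend on, fell by 0.62 (limma adjusted p = 0.0245, and 0.168 without HD mouse 21, called in 4 of the 10 fits that leave out 1 mouse), and Tmem119 by 0.45 at an unadjusted p only (limma adjusted p = 0.124). P2ry12, the purinergic receptor that guides microglial processes, had a mean of 535 ± 111 in HD and 477 ± 29.4 in Se_HD mice (SD, n = 5, log2 fold change -0.14, 95% interval -0.39 to 0.11), and was named here as a defining marker after its values were seen.

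Transcripts outside these lists were also low. Csf3r, the receptor for granulocyte colony-stimulating factor, was at 122, 159, 90.1, 198 and 85.5 normalized counts in HD mice and at 41.5, 37.4, 39.0, 68.9 and 55.8 in Se_HD mice. The groups did not overlap (log2 fold change -1.38, SE 0.214, limma adjusted p = 0.00117). Glycam1, a mucin-like ligand of L-selectin, was at 5.23 to 40.0 in HD mice and 0.762 to 1.89 in Se_HD mice (limma adjusted p = 0.00425). Its Se_HD values were under the 2.93 normalized counts that 3 reads stand for, and its fitted log2 fold change of -2.68 depended on the pseudocount and tool, from -3.82 to -1.09. Nckap1l, a subunit of the haematopoietic WAVE complex, fell by 1.05 (limma adjusted p = 0.00603). Il1b, a proinflammatory cytokine, had a mean of 7.92 in HD and 0.305 in Se_HD mice (limma adjusted p = 0.00585). The Se_HD mean of Il1b was also under the level of 3 reads, so the size of its fall is uncertain. Nckap1l and Il1b were named for being called in every fit that leaves out 1 mouse.

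Complement genes were also lower in Se_HD mice. Of 15 tested, 4 fell at an adjusted and 7 at an unadjusted p, and none rose. The 4 were the subunits of C1q, the recognition molecule of the classical pathway, and C4b, the component that C1 cleaves next. C1qb was at 268, 522, 498, 790 and 165 normalized counts in HD mice and at 132, 142, 134, 120 and 155 in Se_HD mice. All Se_HD mice lay below all HD mice, and 4 of them lay in the Ctr range of 95.3 to 147. The log2 fold changes were -1.51 for C1qb (SE 0.252, limma adjusted p = 0.00297), -1.20 for C1qa (0.00297) and -1.40 for C1qc (0.00565).

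C4b, which in brain is made by glia, was at 772, 1102, 492, 1573 and 519 normalized counts in HD mice and at 418, 350, 335, 367 and 437 in Se_HD mice. The groups did not overlap, but all 5 Se_HD mice lay above the Ctr range of 211 to 296. The log2 fold change of Se_HD minus HD was -1.09 (SE 0.207, limma adjusted p = 0.0128), and that of Se_HD minus Se_Ctr was 0.84 (unadjusted p = 0.000277 by limma). C3ar1, the receptor for the C3a fragment, fell by 1.56 at an unadjusted p only (limma adjusted p = 0.0611). Without HD mouse 21 the adjusted p of C4b was 0.0640 and without mouse 9 it was 0.0697, and the list median moved from -0.90 to -0.50 without mouse 21.

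**Figure D2:**
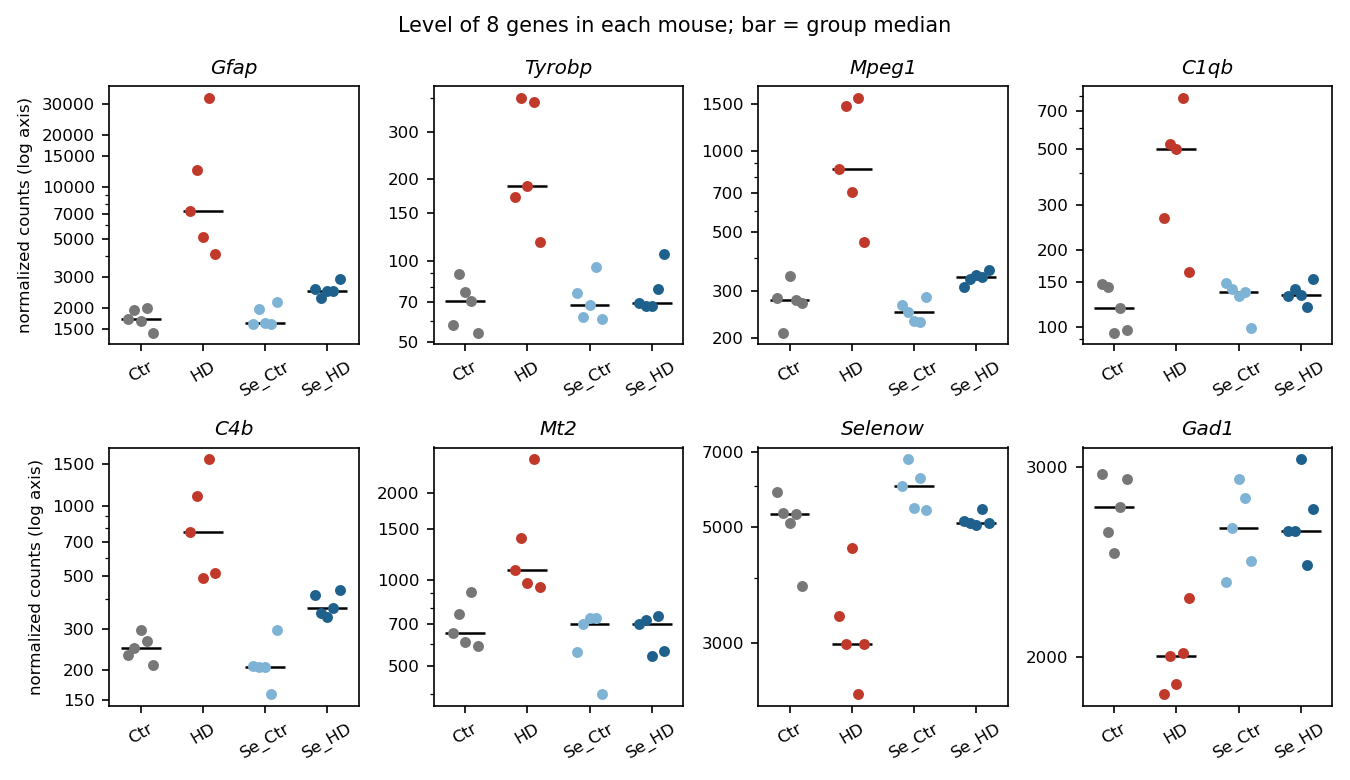
Normalized counts (log axis) of 8 genes in each mouse of Ctr, HD, Se_Ctr and Se_HD, with a bar at the group median. For Gfap and C4b all 5 Se_HD mice lie below all HD mice and above all Ctr mice, and for Selenow and Gad1 all Se_HD mice lie above all HD mice.

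Gfap, the intermediate filament of astrocytes (chromosome 11, NCBIM37, 102748650 to 102762226), was the astrocyte gene with the lowest p. It was at 7281, 12446, 5143, 32820 and 4080 normalized counts in HD mice 3, 9, 15, 21 and 27, and at 2546, 2264, 2499, 2491 and 2909 in Se_HD mice. HD mouse 21 was far above the other HD mice, and every Se_HD mouse lay below every HD mouse and above the Ctr range of 1430 to 1988. The log2 fold change was -1.84 (SE 0.287, limma adjusted p = 0.00117), a 4.86-fold lower mean, and it was -1.38 without HD mouse 21 (adjusted p = 0.000386). Between Se_HD and Se_Ctr mice, whose range was 1596 to 2165, it was 0.51 (unadjusted p = 0.0843 by limma).

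The calls of the reactive astrocyte list were fewer without HD mouse 21. Of 25 tested, 2 fell at an adjusted and 14 at an unadjusted p, none rose, and the list median was -0.89. Without that mouse the median was -0.33, with 1 adjusted and 7 unadjusted calls, and without HD mouse 27 it was -1.14, with 6 adjusted and 15 unadjusted calls. Vim, another intermediate filament, was at 440, 426, 190, 3548 and 231 normalized counts in HD mice and at 247, 219, 208, 186 and 380 in Se_HD mice, so only mouse 21 was far above the Se_HD mice (-1.04, limma adjusted p = 0.427, and -0.33 without it). Timp1, an inhibitor of metalloproteinases, was at 503 in mouse 21 and between 4.02 and 19.2 in the other 4, against 3.05 to 5.69 in Se_HD mice (-2.05, and -0.89 with an unadjusted p of 0.143 by limma without mouse 21). Serpina3n, a serine protease inhibitor, was at 1042 to 1394 in 4 HD mice, at 4745 in mouse 21 and at 822 to 1055 in Se_HD mice (-0.81, limma adjusted p = 0.186, and -0.42 without mouse 21).

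Of 12 genes of resting astrocytes tested, 1 fell at an adjusted and 6 at an unadjusted p, and the list median was -0.22. Sox9, a transcription factor of the astrocyte lineage, was at 911, 684, 1005, 952 and 798 normalized counts in HD mice and at 405, 583, 686, 550 and 578 in Se_HD mice. The groups touched at HD mouse 9 and Se_HD mouse 18, and the log2 fold change was -0.64 (SE 0.133, limma adjusted p = 0.0199, and 0.105 without HD mouse 21; the call was also lost without Se_HD mouse 6 or 24). The potassium channel Kcnj10 and the gap junction protein Gja1 had non-overlapping groups and fell by 0.53 and 0.39 at an unadjusted p (limma adjusted p = 0.0789 and 0.293). Aqp4, the water channel of astrocyte endfeet, was at 9364 in HD mouse 21, 1529 to 3024 in the other HD mice and 1423 to 1729 in Se_HD mice (-0.85, limma adjusted p = 0.213, and -0.42 without mouse 21).

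All 14 interferon response genes had a log2 fold change below 0, with a median of -0.89, and 9 fell at an unadjusted p, none at an adjusted p. Isg15, a ubiquitin-like modifier, was at 19.3, 30.0, 17.5, 176 and 15.7 normalized counts in HD mice and at 9.99 to 22.5 in Se_HD mice. Irf7, a transcription factor of the interferon response, was at 121 in HD mouse 21, 7.85 to 26.7 in the other HD mice and 5.45 to 22.8 in Se_HD mice. Without mouse 21, 1 of the 14 had an unadjusted p under 0.05 and the median was -0.33, and without HD mouse 27 all 14 had, with a median of -1.12. Without HD mouse 9, 4 of the 14 had an unadjusted p under 0.05, with a median of -0.83. Isg15 (-0.95 with all mice) and Irf7 (-0.99) were at -0.33 and -0.36 without mouse 21, and both lost their unadjusted call.

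**Figure D3:**
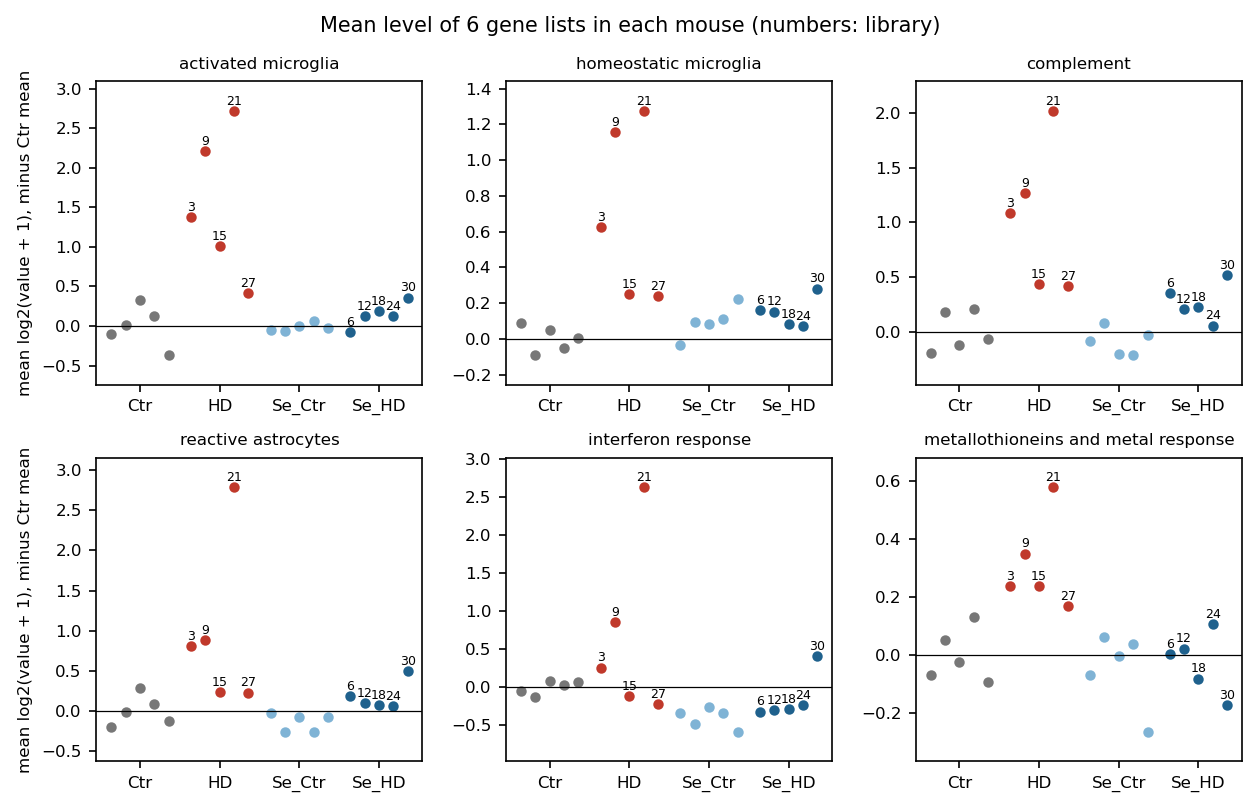
Mean log2(value + 1) of 6 gene lists in each mouse, minus the mean of the Ctr mice, with library numbers for HD and Se_HD mice. HD mouse 21 is highest in all 6 lists, mice 9 and 3 follow for the microglial lists, and mouse 27 lies near the Se_HD mice except for metallothioneins. Se_HD mouse 30 is the highest Se_HD mouse in all lists but the last.

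Of 6 metallothionein and metal-response genes, Mt2 fell at an adjusted and Mt1 and Mt3 at an unadjusted p, and none rose. The promoters of Mt2 and Mt1 are printed because these neighbouring genes moved together. The promoters, 300 bases that end just after the start of the gene, are from RefSeq (GRCm38.p6) on the + strand, chr8:94172368-94172667 for Mt2 and chr8:94178839-94179138 for Mt1. Capitals mark the core letters TGCACNC or TGCGCNC of the metal response element, the site of the zinc-sensing factor MTF-1, searched on both strands.
Mt2: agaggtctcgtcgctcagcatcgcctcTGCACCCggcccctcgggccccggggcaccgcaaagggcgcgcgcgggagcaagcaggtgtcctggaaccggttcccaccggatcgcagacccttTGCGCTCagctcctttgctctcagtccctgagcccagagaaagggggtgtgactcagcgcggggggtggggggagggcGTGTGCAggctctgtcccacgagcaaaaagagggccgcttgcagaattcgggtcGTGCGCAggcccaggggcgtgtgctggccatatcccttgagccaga
Mt1: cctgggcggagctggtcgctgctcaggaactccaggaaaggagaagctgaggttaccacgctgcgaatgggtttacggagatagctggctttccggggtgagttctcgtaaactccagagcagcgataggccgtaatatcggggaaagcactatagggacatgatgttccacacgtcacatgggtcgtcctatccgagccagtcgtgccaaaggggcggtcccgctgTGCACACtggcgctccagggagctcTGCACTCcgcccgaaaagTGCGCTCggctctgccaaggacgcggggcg

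The Mt2 window held 4 matches and the Mt1 window 3. Of 32851 promoters of this length in the table, 25.7% held at least 1 match, 1.97% at least 3 and 0.517% at least 4. Mt3, the metallothionein of neurons and astrocytes, had 1 match. A match is a run of letters and was not tested as a site. The letters GAGGAAGT of PU.1, a transcription factor of microglia, were searched in the same way, on both strands, in 14 promoters of 13 microglial and complement genes that fell; C1qc and Ctss held 1 match each and the other genes none, beside 3.2% of all promoters with a match.

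Mt2 was at 1082, 1398, 975, 2615 and 940 normalized counts in HD mice and at 703, 723, 542, 748 and 566 in Se_HD mice. The groups did not overlap, and 3 Se_HD mice lay within the Ctr range of 589 to 903. Its log2 fold change was -0.99 (SE 0.197, limma adjusted p = 0.0160), and -0.74 (adjusted p = 0.0791) without HD mouse 21; the call was also lost without HD mouse 9 or Se_HD mouse 18. Mt1 was at 1357, 2141, 1054, 2034 and 1208 in HD and 874, 997, 925, 1075 and 815 in Se_HD mice and fell by 0.68 at an unadjusted p (limma adjusted p = 0.0618). Mt3 was at 2053 to 2244 in HD and 1569 to 1977 in Se_HD mice, without overlap, and fell by 0.34 at an unadjusted p (limma adjusted p = 0.411). The other 3 genes of this list, Mtf1, Slc30a1 and Slc39a10, did not pass.

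Genes of the antioxidant response held no call at an adjusted p. Of 19 Nrf2 targets and genes of glutathione synthesis, 3 fell at an unadjusted p, none rose, and the median was -0.07. Among them Hmox1, haem oxygenase 1, was at 230 in HD mouse 21, 58.5 to 102 in the other HD mice and 42.7 to 63.7 in Se_HD mice (-0.83, limma adjusted p = 0.242, and -0.51 without mouse 21), and Srxn1, sulfiredoxin, fell by 0.29 (limma adjusted p = 0.266). Of 10 genes of superoxide dismutases, catalase and peroxiredoxins, Prdx6 and Prdx1 fell at an unadjusted p, by 0.50 and 0.26, none rose, and the median was -0.08. The summed level of these 10 genes was 8320 to 9877 normalized counts in HD mice and 7661 to 7941 in Se_HD mice, without overlap. Without HD mouse 21 the log2 fold change was -0.35 for Prdx6 and -0.11 for Prdx1, whose call was lost (unadjusted p = 0.109 by limma). Cat, catalase, had a mean of 435 ± 59.7 in HD and 416 ± 55.9 in Se_HD mice (SD, n = 5, -0.06, 95% interval -0.27 to 0.14).

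Of 20 selenoprotein genes tested, Selenow rose at an adjusted p and Gpx1, Selenoh and Selenof at an unadjusted p, none fell, and the 12 genes of selenium transport and selenocysteine synthesis held no call. The coding sequences are printed around the selenocysteine codon, the feature that makes these genes depend on selenium, for the 4 that rose and for Gpx4 and Txnrd1, which did not pass. They are on the coding strand from the annotation of NCBIM37, whole for Selenow and otherwise 10 codons before to 10 after, or to the end, and the TGA in capitals is the selenocysteine codon.
Selenow: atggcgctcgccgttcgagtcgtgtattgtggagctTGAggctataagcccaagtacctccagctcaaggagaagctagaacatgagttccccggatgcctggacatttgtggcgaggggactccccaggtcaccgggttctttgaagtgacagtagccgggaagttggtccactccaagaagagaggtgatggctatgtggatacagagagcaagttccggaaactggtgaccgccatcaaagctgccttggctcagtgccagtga
Gpx1: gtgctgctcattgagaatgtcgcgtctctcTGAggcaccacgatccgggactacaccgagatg
Selenoh: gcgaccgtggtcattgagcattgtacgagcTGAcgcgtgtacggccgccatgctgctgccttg
Selenof: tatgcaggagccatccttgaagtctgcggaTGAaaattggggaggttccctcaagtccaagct
Gpx4: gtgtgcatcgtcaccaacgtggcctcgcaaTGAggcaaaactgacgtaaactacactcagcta
Txnrd1: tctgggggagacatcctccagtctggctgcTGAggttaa

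The codon was number 13 in Selenow (chr7:16505813-16505815, - strand, coding exon 2 of 5), 47 in Gpx1 (chr9:108241782-108241784, + strand, coding exon 1 of 2), 38 in Selenoh, 93 in Selenof, 73 in Gpx4 and 498 in Txnrd1, where a single codon stands between it and the stop codon. In 5 of these 6 genes it lay in a coding exon before the last one, and in Txnrd1 in the last, number 13 of 13.

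Selenow, listed as Sepw1 in the annotation, encodes selenoprotein W, a small thioredoxin-like protein abundant in brain and muscle. It was at 3375, 2980, 4564, 2386 and 2980 normalized counts in HD mice and at 5145, 5108, 5054, 5423 and 5095 in Se_HD mice. The Se_HD mice were close together and all above all HD mice, and all lay within the Ctr range of 3858 to 5844. Its log2 fold change was 0.70 (SE 0.135, limma adjusted p = 0.0147), and 0.59 (adjusted p = 0.0926) without HD mouse 21; the call was also lost without HD mouse 9. In Se_Ctr mice it was at 5407 to 6768, a log2 fold change of 0.24 from Ctr (unadjusted p = 0.0842 by limma).

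The 3 selenoprotein genes that rose at an unadjusted p had overlapping groups. Gpx1, the cytosolic glutathione peroxidase, was at 117, 147, 60.5, 131 and 103 normalized counts in HD mice and at 112, 142, 187, 152 and 148 in Se_HD mice, a log2 fold change of 0.45 (limma unadjusted p = 0.0427, adjusted p = 0.576). HD mouse 15 was the lowest, and without it the log2 fold change was 0.24 (limma unadjusted p = 0.232). Selenoh, a nuclear selenoprotein, was at 20.2 to 54.2 in HD and 39.3 to 63.6 in Se_HD mice (0.55, limma adjusted p = 0.566), and Selenof, of the endoplasmic reticulum, at 678 to 997 and 841 to 988 (0.20, limma adjusted p = 0.498). Their unadjusted p without HD mouse 15 were 0.149 and 0.116 by limma. Their lowest log2 fold changes over the fits that left out 1 mouse were 0.39 and 0.13. Of the 10 fits that leave out 1 mouse, the unadjusted call was lost in 6 for Gpx1, in 6 for Selenoh and in 4 for Selenof.

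Gpx4, Selenop and Txnrd1, selenoproteins of wide interest, did not pass the test. Gpx4, which reduces lipid peroxides, had a mean of 1222 ± 205 normalized counts in HD and 1167 ± 127 in Se_HD mice (SD, n = 5, log2 fold change -0.06, 95% interval -0.32 to 0.20). Selenop, the plasma carrier of selenium, had 2218 ± 375 and 2114 ± 329 (-0.07, 95% interval -0.29 to 0.15). Txnrd1, cytosolic thioredoxin reductase, had 447 ± 102 and 465 ± 40.2 (0.08, 95% interval -0.13 to 0.28). Without HD mouse 21 Txnrd1 passed an unadjusted p (0.20, limma unadjusted p = 0.0261, adjusted p = 0.606). The test measures transcripts, not protein or enzyme activity.

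**Figure D4:**
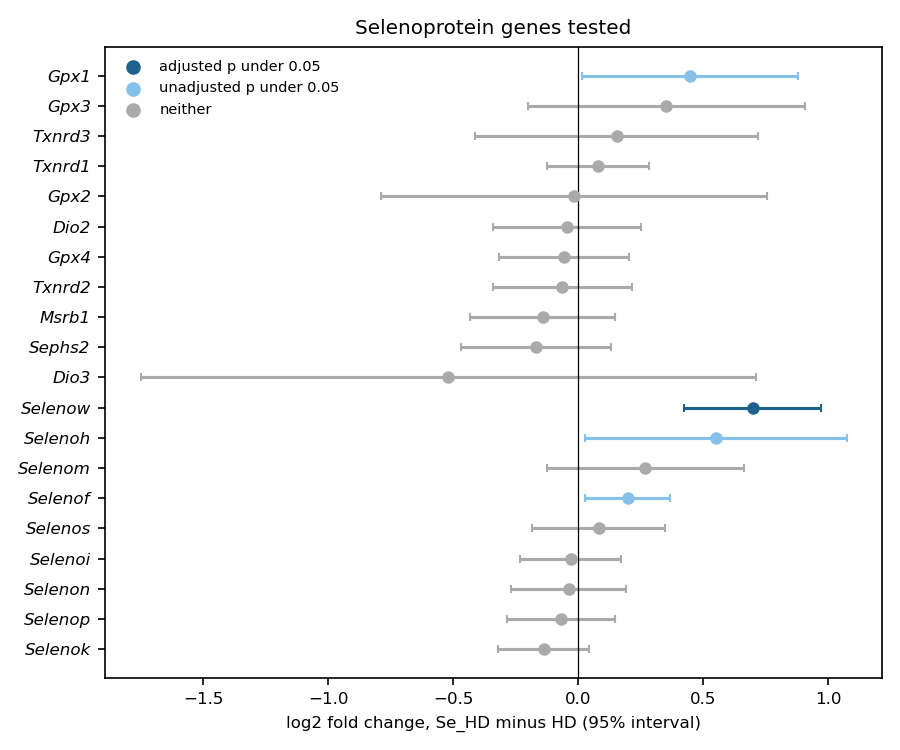
Log2 fold change of Se_HD minus HD with its 95% interval for the 20 selenoprotein genes tested, enzymes above and other selenoproteins below. Selenow (0.70) is the only one with an adjusted p under 0.05, and Gpx1, Selenoh and Selenof are those with an unadjusted p under 0.05.

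Gad1 was the other gene that rose at an adjusted p. It encodes the 67-kilodalton glutamate decarboxylase that makes GABA (chromosome 2, NCBIM37, 70391129 to 70440071). It was at 1848, 2005, 1888, 2018 and 2269 normalized counts in HD mice and at 2619, 2618, 3050, 2433 and 2745 in Se_HD mice. All Se_HD mice lay above all HD mice, and HD mouse 21 lay among the other HD mice. Its log2 fold change was 0.42 (SE 0.0832, limma adjusted p = 0.0160), it was 0.43 without HD mouse 21 (adjusted p = 0.0441), and of the 10 fits that leave out 1 mouse the call was lost in that without Se_HD mouse 18 (adjusted p = 0.0607). Of 14 genes of GABA neurons, Npy, neuropeptide Y, fell at an unadjusted p (-0.61, and -0.17 without HD mouse 21, which held 925 normalized counts against 171 to 218 in the other HD mice). The list median was 0.15.

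Among the other genes of lowest p that were higher in Se_HD mice, none passed an adjusted p. Kcnab1, a potassium channel subunit, rose at an unadjusted p by 0.43 on the log2 scale (limma adjusted p = 0.0956), Kcnk2, a background potassium channel, by 0.41 (0.127, groups not overlapping) and Cds1, an enzyme of phospholipid synthesis, by 0.38 (0.0964). Pdyn, prodynorphin, which is made in dentate granule cells, was at 38.6, 35.8, 36.3, 16.3 and 39.3 normalized counts in HD mice and at 55.0, 73.9, 42.7, 45.3 and 75.1 in Se_HD mice, without overlap (0.82, limma adjusted p = 0.175). Slc30a9, B3gat1, Laptm4b, Slain1 and Dcaf12l1 rose by 0.30 to 0.44, and these kept an unadjusted p under 0.05 in each fit that left out 1 mouse. Of 21 immediate early genes, Egr1 (0.74, limma adjusted p = 0.556) and Nr4a3 rose at an unadjusted p, and none fell. Without HD mouse 21 none passed, and without HD mouse 27 there were 5 genes that had an unadjusted p under 0.05.

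Of 15 genes of excitatory neurons and the synapse, 1 (Vamp2) rose at an unadjusted p, 0.23 with all mice and 0.13 without HD mouse 21. Vamp1, a synaptic vesicle protein, had a mean of 943 ± 96.8 normalized counts in HD and 1041 ± 73.7 in Se_HD mice (SD, n = 5). It did not pass (0.15, 95% interval -0.05 to 0.34), and all 5 Se_HD mice, at 940 to 1124, lay below the Ctr range of 1176 to 1738. Of 14 myelin genes, 3 rose at an unadjusted p, Tspan2 among them (0.33). Se_HD mouse 18 was the highest for Tspan2, with 1509 against 895 to 992 in the other Se_HD mice. Without it the unadjusted p was 0.109 by limma. Over the fits that left out 1 mouse the lowest log2 fold change of Tspan2 was 0.20.

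Of 16 clock genes, 1 fell and 3 rose at an unadjusted p. Bhlhe41, a repressor, was the gene that fell, also at an adjusted p (-0.63, limma adjusted p = 0.0304). Without HD mouse 21 it was at -0.46 (limma adjusted p = 0.189), and it was called in 5 of the 10 fits that leave out 1 mouse. Arntl, which encodes BMAL1, was among those that rose (0.49, limma adjusted p = 0.224). In Se_Ctr against Ctr, 6 of the 16 had an unadjusted p under 0.05 by limma, beside 4% of all genes. Endothelium (12 genes, 2 lower), the unfolded protein response (18 genes, 2 lower), heat shock proteins (12 genes, 2 lower), cholesterol synthesis (17 genes, no call) and the mitochondrial genome (13 genes, no call) held no call at an adjusted p, and the lower and higher counts at an unadjusted p stand beside shares of 5.28% and 3.1% over all genes.

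**Figure D5:**
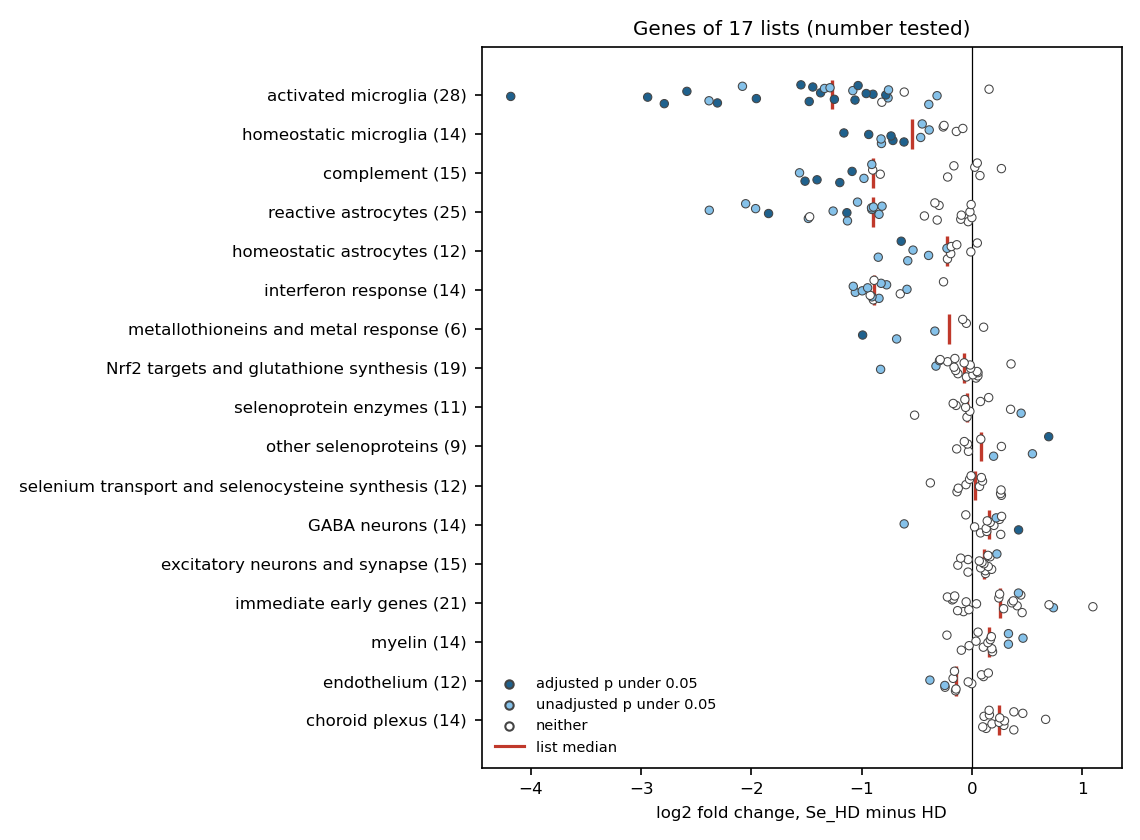
Log2 fold change of Se_HD minus HD for each tested gene of 17 lists, with the list median in red. Blue points passed an adjusted p and light blue points an unadjusted p under 0.05. The calls lie to the left for microglia, complement, astrocytes and the interferon response. The medians of the other lists lie between -0.21 and 0.25.

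The study picked 20 genes because their RNA and protein both differed in MeHg-fed mice, a list chosen on these HD mice and so not independent of them. In Se_HD against HD, 5 of the 20 passed an adjusted p (Gfap, C1qb, Ctsd and Rida lower, Gad1 higher) and 12 an unadjusted p, 9 lower and 3 higher. Rida, an enzyme that clears reactive imines, was at 556, 629, 494, 481 and 477 normalized counts in HD mice and at 418, 390, 362, 408 and 388 in Se_HD mice. The groups did not overlap (-0.42, SE 0.0963, limma adjusted p = 0.0454). The call was lost without HD mouse 9 (0.214) or 21 (0.0958) and in 6 other fits that left out 1 mouse. The log2 fold change of Rida was -0.35 without HD mouse 9 and -0.45 without HD mouse 21. Apoe, the main lipid carrier of astrocytes, was at 10819 to 17335 in HD and 10568 to 11553 in Se_HD mice (-0.37, limma adjusted p = 0.330), and Lxn, latexin, fell by 0.40 (limma adjusted p = 0.266).

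To see how the high dose stood against each control, the contrasts are set side by side. HD minus Ctr and Se_HD minus HD share the HD mice, and Se_HD minus Se_Ctr shares the Se_HD mice, so that the values are not independent of each other. The log2 fold change of HD minus Ctr was 2.39 for Gfap, 1.71 for Tyrobp, 1.71 for C1qb, 0.90 for Mt2, -0.66 for Selenow and -0.46 for Gad1. That of Se_HD minus Se_Ctr was 0.51, 0.10, 0.06, 0.09, -0.21 and 0.03 in the same order. Over all genes, 200 (0.935%) differed between HD and Ctr at an adjusted p under 0.05. Between Se_HD and Se_Ctr it was 0 (limma, lowest adjusted p = 1), with 576 (2.69%) at an unadjusted p. Between Se_HD and Ctr mice 1 gene (0.00468%), Slc45a2, named here as the only gene, passed, and 1102 (5.15%) at an unadjusted p. Of the 70 genes of Se_HD against HD, 5 had an unadjusted p under 0.05 between Se_HD and Se_Ctr mice and 4 between Se_HD and Ctr mice.

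Whether selenium acted otherwise at the high dose than without mercury was tested as the difference of the differences, (Se_HD minus HD) minus (Se_Ctr minus Ctr). No gene passed an adjusted p (limma, lowest 0.108, Glycam1), 1021 (4.77%) passed an unadjusted p, and DESeq2 on the recovered reads called 12 and edgeR 0. Among genes named above, the difference of the differences was -1.88 for Gfap (adjusted p = 0.149), -1.61 for Tyrobp (0.121), -1.65 for C1qb (0.149), 0.49 for Gad1 (0.282) and 0.46 for Selenow (0.997), all by limma. These genes were named for Se_HD minus HD, which is itself a term of this contrast, so their values are a description. In Se_Ctr against Ctr no gene passed an adjusted p and 855 (4%) passed an unadjusted p; the log2 fold change was 0.03 for Gfap, 0.06 for Tyrobp, 0.14 for C1qb and -0.06 for Gad1. Against the low dose, (Se_HD minus HD) minus (Se_LD minus LD), no gene passed an adjusted p either and 937 (4.38%) had an unadjusted p under 0.05; in Se_LD against LD itself no gene passed an adjusted p and 611 (2.86%) an unadjusted p.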

How the data were processed

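Hippocampal RNA of 30 male BALB/c mice in 6 groups of 5 was sequenced (TruSeq Stranded mRNA, single-end reads, 1 library per mouse). Per the labels and the methods of the study, reads were trimmed with Trim Galore 0.4.2, aligned with HISAT2 to NCBIM37 and counted with featureCounts; the strand setting of the counting is not given in the sources used here. The deposited signal values are gene counts that the authors divided by DESeq2 size factors, with genes under 10 reads in all removed. Dividing by the step of each library, the value that 1 read stands for, gave whole reads for 100% of values (tolerance 0.01). The table held 21412 genes, and 86 identifiers had no symbol.

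The values were tested as log2(value + 1) with limma 3.58.1 (R 4.3.3, trend, 1 coefficient per group, all 30 libraries, 24 residual degrees of freedom) over the 21383 genes whose normalized counts summed to 10 or more, with Benjamini-Hochberg adjustment. A pseudocount of 1 understates changes of low genes. Each mouse is 1 sample, and the p-values rest on 1 spread per gene shared over the 6 groups. Where HD mice spread more than the other groups, the SE and p understate that spread. For Gfap the SD was 11886 in HD and 233 in Se_HD mice, and for Mpeg1 it was 493 and 18.2. Count tests of the recovered reads (DESeq2 1.42.0, edgeR 4.0.16), other pseudocounts, filters and scalings, a block and leaving out each mouse were alternatives. The scripts were tested on simulated data. Intervals cover 95%.

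Named were the 10 genes of lowest p in each direction, the 5 largest changes in each direction among non-overlapping groups with a mean of at least 10, fixed members of 35 lists and list members with an unadjusted p under 0.05. The mean of at least 10 was taken over the HD and Se_HD libraries, so genes high in HD mice alone could pass. The members and lists were chosen with earlier results of these data known. Sequences came from the NCBIM37 annotation and from RefSeq, and no coordinate was converted between builds.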

Additional observations from a re-analysis of the deposited data

Results flagged for a closer look

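In each group of 5 mice, the gap between the most extreme mouse and its nearest neighbour was divided by the range of the group, and a share above 0.71 marked a mouse far from the others. Of 146 groups of values 26 were marked, and 16 of the 26 were in HD library 21. For independent values with a normal spread about 1 in 20 groups (7.3 of 146) would be marked. The genes were chosen from these same data and can vary together, so 7.3 is no chance expectation for this set.

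HD library 21 was far above the other HD mice for Glycam1 (0.719), Spp1 (0.925), Vim (0.926), Serpina3n (0.905), Timp1 (0.970), Aqp4 (0.809), Mt2 (0.727), Hmox1 (0.744), Prdx1 (0.848), Npy (0.937), Irf7 (0.833) and Isg15 (0.911). It was far below them for Vamp2 (0.768), Pdyn (0.850), Egr1 (0.759) and Gm1337 (0.764). Spp1, which encodes osteopontin, was at 2822 normalized counts in library 21 and between 33.2 and 242 in the other HD mice. The part of this mouse in the calls is given by the fits without it.

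Among the other HD mice, Epyc was high in library 3 (0.752), and the reads on genes were low in library 15 (0.821).

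Among Se_HD mice, library 30 was high for Tyrobp (0.723), Timp1 (0.724) and Irf7 (0.715), library 12 for Npy (0.715) and Slc35f4 (0.776), and library 18 for Tspan2 (0.843). In library 24 Selenow was high (0.755) and Slc30a9 low (0.783).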

How the results depend on the processing

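The count of 70 genes at an adjusted p was between 48 and 79 with other pseudocounts, filters and scalings. It was 27 with limma without a trend, 167 with edgeR, 228 with DESeq2 and 0 with the HD and Se_HD libraries alone, and 15 to 168 when 1 mouse was left out. The 1792 genes at an unadjusted p became 768 when an F test over the 6 groups was also required. The count of 0 genes for the difference of the differences was 12 with DESeq2 and 0 to 21 without 1 mouse. It was 2 without Ctr library 13, an alternative chosen after seeing the data. The 1021 genes at an unadjusted p became 640 in a fit of genes with a mean of at least 10 over all 30 libraries. The cause of these shifts was not tested. Samples carry no shared replicate number in the labels. A replicate block by sets of 6 consecutive library numbers called 54 genes, and same-set mice correlated at -0.115 to 0.166, so the sets did not pair the mice.

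Leaving out 1 mouse turned the sign of 4 genes near 0: Cat ranged from -0.14 to 0.0079 (positive without HD mouse 3), Gpx4 from -0.15 to 0.0011 (without HD mouse 15), Selenop from -0.13 to 0.017 (without HD mouse 9, and 0.0096 without Se_HD mouse 24) and Txnrd1 from -0.0073 (without HD mouse 15) to 0.20. Among the 72 genes recomputed, none turned its sign under the alternatives that kept all mice. The 72 leave out Nckap1l, Il1b, P2ry12, Nr4a3, Prox1 and Slc45a2. Cst7, Itgax, Ccl3 and Glycam1 had no value when a mean of at least 10 over all 30 libraries was required. Of the 70 genes at an adjusted p, 13 kept the call in all 10 fits that left out 1 mouse. Depth limits low genes: 3 reads correspond to 2.93 normalized counts.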
